A study of Mus musculus with 31 samples.

Results

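The 36 genes described here supply a cell with amino acids, and they cover the transcription factor Atf4 and its partners in the amino acid stress response, the enzymes of serine, folate, asparagine and proline synthesis, amino acid transporters, and the synthetases that load amino acids onto transfer RNA. They were chosen as a list of gene symbols, and all 36 were found among the 27179 genes of the count table. After the filter on low counts 34 of them were tested, among 10275 genes in all. Pycr1, which makes proline, had 23 counts in all libraries together, and Slc7a11, which imports cystine, had 44, so neither was tested. RNA was sequenced from sorted mouse natural killer (NK) cells, lymphocytes of the innate immune system that lyse stressed targets. Wild-type cells (WT) were measured unstimulated (4 libraries), after 4 h with the cytokine TGFB1 (2 libraries) and after 24 h with TGFB1 (4 libraries). Cells labelled TGFBRII_KO, a knockout of the type II TGF-β receptor gene Tgfbr2, had 3 libraries in each of the same 3 conditions. Cells labelled CIS_KO, a knockout of Cish, a suppressor of cytokine signalling, had 4 libraries in each. The labels number the libraries as biological replicates but do not say whether they came from separate mice, so the p-values measure the spread between these libraries. They give no allele or Cre driver for either knockout and no strain, sex or age of the mice. No analysed group is labelled as cultured for 24 h free of TGFB1, and the titles of the unstimulated libraries give no time in culture. Within WT or CIS KO cells, TGFB1 and time in culture therefore cannot be told apart. TGFBRII KO cells went through the same times with TGFB1, and their responses are compared with those of WT.

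ATF4 is a transcription factor whose protein is made when amino acids run short or unfolded proteins accumulate, because phosphorylation of the translation factor eIF2 favours its translation. It binds, often with a C/EBP partner, to response elements near genes of amino acid synthesis, import and tRNA charging. Activated lymphocytes use serine and the mitochondrial folate pathway to make one-carbon units for purine and thymidylate synthesis. Because control of ATF4 is largely at translation, its transcript level is not a measure of its protein.

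Total counts ran from 297561 (WT at 4 h, replicate 1) to 1403005 per library, with a median of 736193. All 12 NK markers listed were detected in every group. Cd4, Cd8a and Cd5, listed as T cell markers, were at 0 in 21, 21 and 28 of the 31 libraries, while Cd3d and Cd3g, which NK cells also carry, stood at medians of 85 and 148 CPM (the count per library scaled to a common library size). Of the other T cell markers listed, Bcl11b, Lat and Cd3e were in every library (medians of 79.2, 111 and 7.12 CPM), and Cd6 was at 0 in 16. Also in every library were Fcer1g, Itgax, Cd14 and Cd68 of the myeloid list (397, 186, 20.9 and 10.2 CPM). So were Il1rl1 of the innate lymphoid list (26.9 CPM) and Pecam1 and Epcam of the stroma and epithelium list (240 and 90.9 CPM). The other genes of the myeloid, innate lymphoid and stroma lists had medians of at most 2.51 CPM. The B cell list summed to at most 6.24 CPM, and the globin genes listed were at 0 in all libraries. Cish averaged 25.2 ± 6.76 CPM (SD, n = 4) in unstimulated CIS KO cells and 158 ± 21.6 CPM (n = 4) in WT. Tgfbr2 counts over the whole gene were 230 ± 8.18 CPM (n = 3) in unstimulated TGFBRII KO cells and 213 ± 26.6 CPM (n = 4) in WT, which does not check a deletion of part of the gene. Xist, transcribed from the inactive X chromosome, read 91.1 to 222 CPM across WT libraries, 12.6 to 131 across those of TGFBRII KO, and at most 5.22 in CIS KO. Y-linked genes read 1.38 to 124 CPM in WT, 187 to 451 in TGFBRII KO and 392 to 558 in CIS KO. Genotype and sex cannot be told apart in comparisons between genotypes. Libraries of WT and of TGFBRII KO also varied in these transcripts, and the part of sex in responses within a genotype was not tested. In bulk RNA, fewer cells with a transcript and less of it per cell cannot be told apart either.

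Levels of the members differed widely in unstimulated WT cells. Per kilobase of annotated exon, Nars, the asparaginyl-tRNA synthetase, stood highest at 91 CPM per kb. It was followed by Mthfd2, a mitochondrial folate enzyme, at 78 and Gars, the glycyl-tRNA synthetase, at 72.8. Shmt2, Psat1 and Sars lay close together at 58.6, 56.7 and 54.7 CPM per kb. Chac1 (19.6) and Atf4 (12.1) lay lower, and Sesn2, at 3.14 CPM per kb, was the lowest of the 34 tested members. Exon lengths are the union of all annotated transcripts, so the value is too low for a gene with long exons that NK cells do not use.

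Because ATF4 is known to act on many of these genes, their promoters were searched for the core of the C/EBP-ATF response element through which ATF4 acts. Since the list holds known ATF4 targets, an excess of this core over all genes follows from the choice of members and is not a test. RefSeq (GRCm38.p6) held a promoter window for 29 of the 36 members. In the 250 bases before the annotated start, TGATGNAA was found on either strand in 7 of 29 members (24.1%), against 3.91% of all 27025 genes with a window. Among tested genes it was in 5 of 27 members (18.5%) and in 2.35% of 8040 genes, since Pycr1 and Slc7a11 were not tested. These promoters are shown from the core outward by up to 30 bases on each side, 5′ to 3′ on the gene's strand, with the core in capitals. A core on the opposite strand appears as its reverse complement.
Chac1 (chr2:119351019-119351086, + strand): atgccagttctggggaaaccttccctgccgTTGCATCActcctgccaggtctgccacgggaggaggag
Asns (chr6:7693210-7693262, - strand): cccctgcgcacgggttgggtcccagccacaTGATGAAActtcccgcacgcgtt
Aars (chr8:111033700-111033767, + strand): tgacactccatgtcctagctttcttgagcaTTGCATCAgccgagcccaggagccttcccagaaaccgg
Gars (chr6:55037941-55038000, + strand): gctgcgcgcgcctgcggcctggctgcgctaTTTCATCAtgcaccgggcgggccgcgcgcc
Tars (chr15:11399659-11399703, - strand): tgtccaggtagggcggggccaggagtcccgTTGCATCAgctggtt
Pycr1 (chr11:120643814-120643881, - strand): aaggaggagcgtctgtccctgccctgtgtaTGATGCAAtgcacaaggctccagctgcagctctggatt
Slc7a11 (chr3:50443623-50443709, - strand): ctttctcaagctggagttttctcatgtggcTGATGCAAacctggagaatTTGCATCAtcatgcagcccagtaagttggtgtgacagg

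The 7 promoters hold the core at different distances from the start, from 193 bases upstream in Chac1 to 15 bases upstream in Tars. Asns and Gars carry TGATGAAA and the others TGATGCAA, and Slc7a11 carries it on both strands. The start used for Aars, and that used for Slc7a11, lies inside the span RefSeq gives the gene, so each has another start further upstream. Other motifs were near their background: the E-box CACGTG was in 3 of 29 members (10.3%; Aldh18a1, Aars and Iars), in 10.1% of tested genes and in 6.86% of all genes. The cyclic AMP response element TGACGTCA was in 0 of 29 members, in 3.28% of tested genes and in 1.77% of all genes. A match is a stretch of letters, not a measured binding site.

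**Figure D1:**
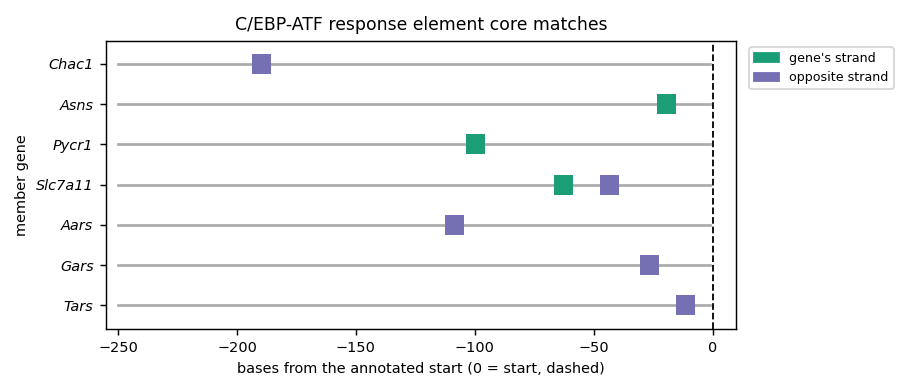
Position of each TGATGNAA match (squares; green on the gene's strand, purple on the opposite strand) in the 250 bases before the annotated start, for the 7 member genes with a match. The x axis is the distance from the start in bases; Slc7a11 holds 2 matches and each other gene 1.

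Counts of members that passed the test (edgeR's quasi-likelihood test, adjusted p under 0.05 over all 10275 genes) are set here against the share of all tested genes called. For some weak calls, the text gives how many of 7 other settings (of scaling, filter, model or tool) kept them. A call given without such a count was not always stable. WT cells had 18 of 34 members lower after 24 h of TGFB1 (52.9%), where 11.5% of all tested genes were lower, and 1 member higher, where 9.63% of all genes were higher. The median log2 difference was -0.39 over the members and 0.03 over all genes. After 4 h, 6 WT members were lower against 5.03% of all genes, and 0 were higher against 6.9%. Leaving out WT 4 h replicate 4 left 2 of the 6 (Slc7a1 and Aars). The Tars call was kept in 3 of 7 other settings and was lost without any of 5 of the 6 libraries compared. Set against the same 4 h libraries, 6 WT members were lower at 24 h (4.57% of all genes lower, 7.57% called either way), and all 6 are synthesis and folate enzymes. Markers moved both ways in WT at 4 h: Ncr1 (-1.04 ± 0.14) and Bcl11b (-2.16 ± 0.32) were lower. Gzma (0.93 ± 0.27), Fcer1g (0.81 ± 0.27), Pecam1 (0.59 ± 0.12) and Lat (0.46 ± 0.15) were higher. The part of these markers was not tested.

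In TGFBRII KO cells, 0 of 34 members passed at 4 h by edgeR's quasi-likelihood test or by DESeq2, where 4.57% of all genes were higher and 3.45% lower (8.02% called). Of the 34, 4 had an unadjusted p under 0.05, and 1 was called without TGFBRII KO unstimulated replicate 3. At 24 h 1 member, Chac1, was higher, where 0.0195% of all genes were called, and that count was 0 without any of 5 of the 6 libraries, named with Chac1. From 4 h to 24 h Chac1 and Cars were higher and 0 members were lower (4.3% and 3.86% of all genes, 8.17% called). Cars lost its call without TGFBRII KO 4 h replicate 1 or 2 or 24 h replicate 2 or 3 (adjusted p up to 0.13). The count was 1 without 4 h replicate 1 or 2 or 24 h replicate 3, and 6 of 7 other settings kept Cars. In this comparison 2 of 5 tested T cell markers were also higher, Cd3d (0.79 ± 0.18) and Cd3g (0.49 ± 0.15), with summed T cell markers at 501 to 551 CPM against 344 to 407 CPM at 4 h and with Cd4 and Cd5 at 0 in the 4 h libraries. Their part was not tested. In CIS KO cells 20 members were lower and 2 higher at 24 h, where 11.7% and 12.3% of all genes were. At 4 h 10 members were lower and 1 was higher (6.3% and 7.76% of all genes). From 4 h to 24 h 13 were lower, with 7.7% of all genes, among them Asns (-1.18 ± 0.20), Psat1 (-0.76 ± 0.11), Atf5 (-0.76 ± 0.17) and Shmt2 (-0.70 ± 0.11).

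**Figure D2:**
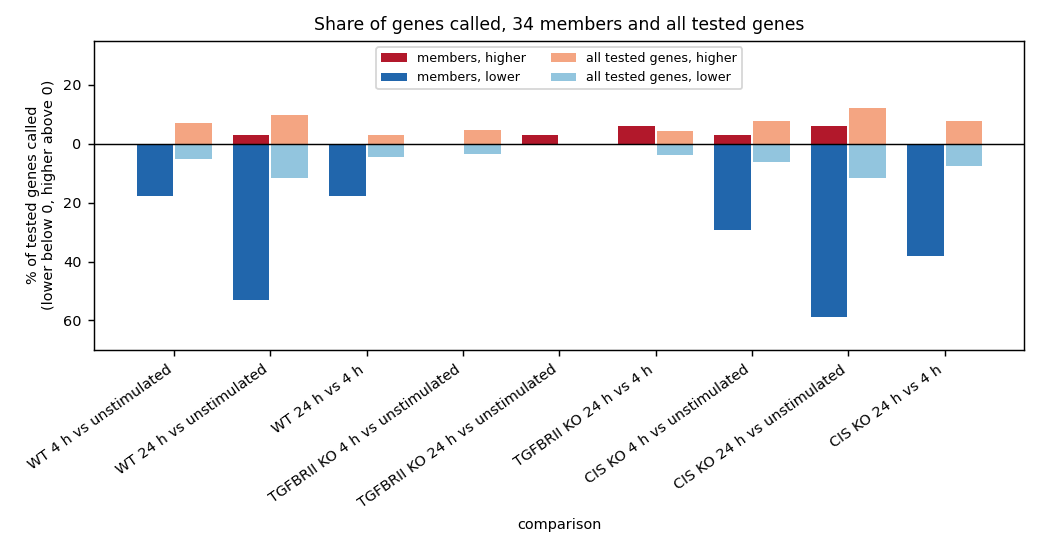
Share of the 34 tested members (dark bars) and of all 10275 tested genes (pale bars) called higher (above 0) or lower (below 0) in each of 9 comparisons within a genotype. The dark lower bars reach 52.9% in WT and 58.8% in CIS KO at 24 h, and TGFBRII KO has no dark lower bar.

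Of the 9 tested enzymes of serine, folate, asparagine and proline synthesis, 8 fell in WT cells at 24 h, with a median log2 difference of -0.88 over the 9. Mthfd2 (Entrez 17768; GRCm38.p6 chromosome 6, 83305704 to 83326011) works in the mitochondrial arm of the folate pathway. Its WT libraries stood at 271, 297, 254 and 267 CPM unstimulated, at 210 and 185 CPM after 4 h, and at 109, 120, 83.5 and 107 CPM after 24 h. The 3 conditions did not overlap. The log2 difference was -0.48 ± 0.13 (SE; adjusted p = 0.014) at 4 h and -1.36 ± 0.11 (adjusted p = 3.1e-12) at 24 h, a 2.57-fold lower level; without WT 4 h replicate 4 the 4 h adjusted p was 0.24, and 6 of 7 other settings kept that call. TGFBRII KO libraries read 272, 292 and 237 CPM unstimulated, 297, 292 and 266 CPM at 4 h, and 296, 312 and 291 CPM at 24 h. CIS KO libraries fell from 359, 352, 324 and 311 CPM to 205, 245, 241 and 183 CPM at 4 h and 164, 167, 150 and 153 CPM at 24 h, with log2 differences of -0.62 ± 0.10 and -1.07 ± 0.10. The WT and CIS KO levels stepped down at both times, while the TGFBRII KO conditions overlapped.

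Phgdh, Psat1 and Psph catalyse the successive steps that make serine from the glycolytic intermediate 3-phosphoglycerate. Psat1 (Entrez 107272; chromosome 19, 15905123 to 15925059) read 220, 252, 246 and 247 CPM in unstimulated WT libraries, 237 and 241 CPM at 4 h, and 161, 144, 145 and 119 CPM at 24 h. The 4 h libraries lay within the unstimulated range and the 24 h libraries all lay below it. The log2 difference was -0.01 ± 0.13 at 4 h (adjusted p = 0.97) and -0.76 ± 0.11 at 24 h (adjusted p = 9.5e-07). Phgdh (Entrez 236539; chromosome 3, 98313171 to 98339969) had the same order, with 69.9, 67.4, 54.5 and 56.6 CPM, then 52.6 and 61.4 CPM, then 16.1, 24.8, 29.8 and 31.2 CPM. Its log2 difference was -0.07 ± 0.20 at 4 h (adjusted p = 0.91) and -1.28 ± 0.17 at 24 h (adjusted p = 5.1e-07). Psph was lower by less, at -0.47 ± 0.13 at 24 h (adjusted p = 0.0068).

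Each of these serine enzymes was also lower at 24 h than at 4 h in WT cells, with log2 differences of -1.21 ± 0.23 for Phgdh, -0.75 ± 0.14 for Psat1 and -0.63 ± 0.17 for Psph. Without WT 4 h replicate 4 the call was lost for Phgdh (adjusted p = 0.14), and without any of 3 libraries (both WT 4 h libraries or WT 24 h replicate 4) for Psph, with an adjusted p of up to 0.16. The Phgdh call was kept in 6 and the Psph call in 2 of 7 other settings. Psat1 held without each library in turn. In TGFBRII KO cells Phgdh read 57.1 to 70.9 CPM unstimulated, 66.3 to 79.5 CPM at 4 h and 61.6 to 71.4 CPM at 24 h, and Psat1 225 to 237, 251 to 294 and 254 to 276 CPM. Neither passed the test there at either time. CIS KO cells at 24 h had Psat1 lower by -0.94 ± 0.11 (adjusted p = 2.7e-08) and Phgdh by -0.70 ± 0.18 (adjusted p = 0.0039). Psph did not pass there (-0.29 ± 0.13, adjusted p = 0.12).

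Asns, which makes asparagine from aspartate and glutamine and is a well known ATF4 target, changed late. In WT it read 61, 69.9, 86.3 and 87 CPM unstimulated, 75.2 and 68.9 CPM at 4 h, and 17.5, 34.5, 25.3 and 38.6 CPM at 24 h. All 24 h libraries were below all others. The log2 difference from unstimulated cells was -0.11 ± 0.24 at 4 h (adjusted p = 0.81) and -1.39 ± 0.21 at 24 h (adjusted p = 3.8e-06). Between 4 h and 24 h it was -1.28 ± 0.28 (adjusted p = 0.0037), or 0.07 as the adjusted p without WT 4 h replicate 4. CIS KO libraries read 55.2 to 99.9 CPM unstimulated, 78.2 to 129 CPM at 4 h and 26.5 to 53.3 CPM at 24 h, a log2 difference of -0.96 ± 0.20 at 24 h. TGFBRII KO libraries read 66.5, 86.7 and 94.1 CPM at 24 h, within or above their unstimulated range of 59.5 to 77.8 CPM, and the difference did not pass (0.20 ± 0.20).

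Shmt1 and Shmt2 move a one-carbon unit from serine to folate, in the cytosol and in mitochondria respectively. Shmt2 followed the late pattern in WT: 174, 181, 189 and 184 CPM unstimulated, 165 and 182 CPM at 4 h, and 103, 93.9, 110 and 89 CPM at 24 h. Its log2 difference was -0.05 ± 0.13 at 4 h (adjusted p = 0.86) and -0.88 ± 0.10 at 24 h (adjusted p = 3.7e-08). Shmt1 was already lower in each WT 4 h library, at 15 and 26.3 CPM (4 and 21 counts) against 37.3 to 49.9 CPM unstimulated. Its difference did not pass (-0.83 ± 0.31, adjusted p = 0.073). At 24 h it stood at 16.1, 16.2, 14.9 and 7.42 CPM (-1.56 ± 0.24, adjusted p = 6.9e-06). In CIS KO Shmt1 was lower at 4 h (-1.04 ± 0.26, adjusted p = 0.0045), and Shmt2 at 24 h (-0.68 ± 0.11, adjusted p = 1.3e-05).

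Mthfd1l, which releases formate from mitochondria, was lower at 24 h in WT (-0.35 ± 0.12, adjusted p = 0.027) and CIS KO (-0.50 ± 0.12, adjusted p = 0.0028). The WT call was lost without any of 5 of the 8 libraries: WT unstimulated replicate 1, 2 or 4, or WT 24 h replicate 1 or 2, with adjusted p up to 0.20, and kept in 5 of 7 other settings. Aldh18a1, which starts proline synthesis from glutamate, did not pass in WT (-0.27 ± 0.19, adjusted p = 0.35) and was lower in CIS KO at both times (-0.69 ± 0.21 and -0.55 ± 0.19). Each of those calls was lost without any of several single libraries, with adjusted p up to 0.075 and 0.12, and 4 of 7 other settings kept the 24 h call. Pycr1 counts ranged from 0 to 3 per library. Summed over the 10 synthesis enzymes, WT libraries held 1148 ± 32.8 CPM (SD, n = 4) unstimulated, 1025 ± 15.1 (n = 2) at 4 h and 626 ± 11 (n = 4) at 24 h. The sums were 1126 ± 58.8, 1228 ± 47.4 and 1258 ± 61.7 CPM in TGFBRII KO (n = 3 each), and 1347 ± 59.5, 1127 ± 29.8 and 784 ± 66.8 CPM in CIS KO (n = 4 each).

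**Figure D3:**
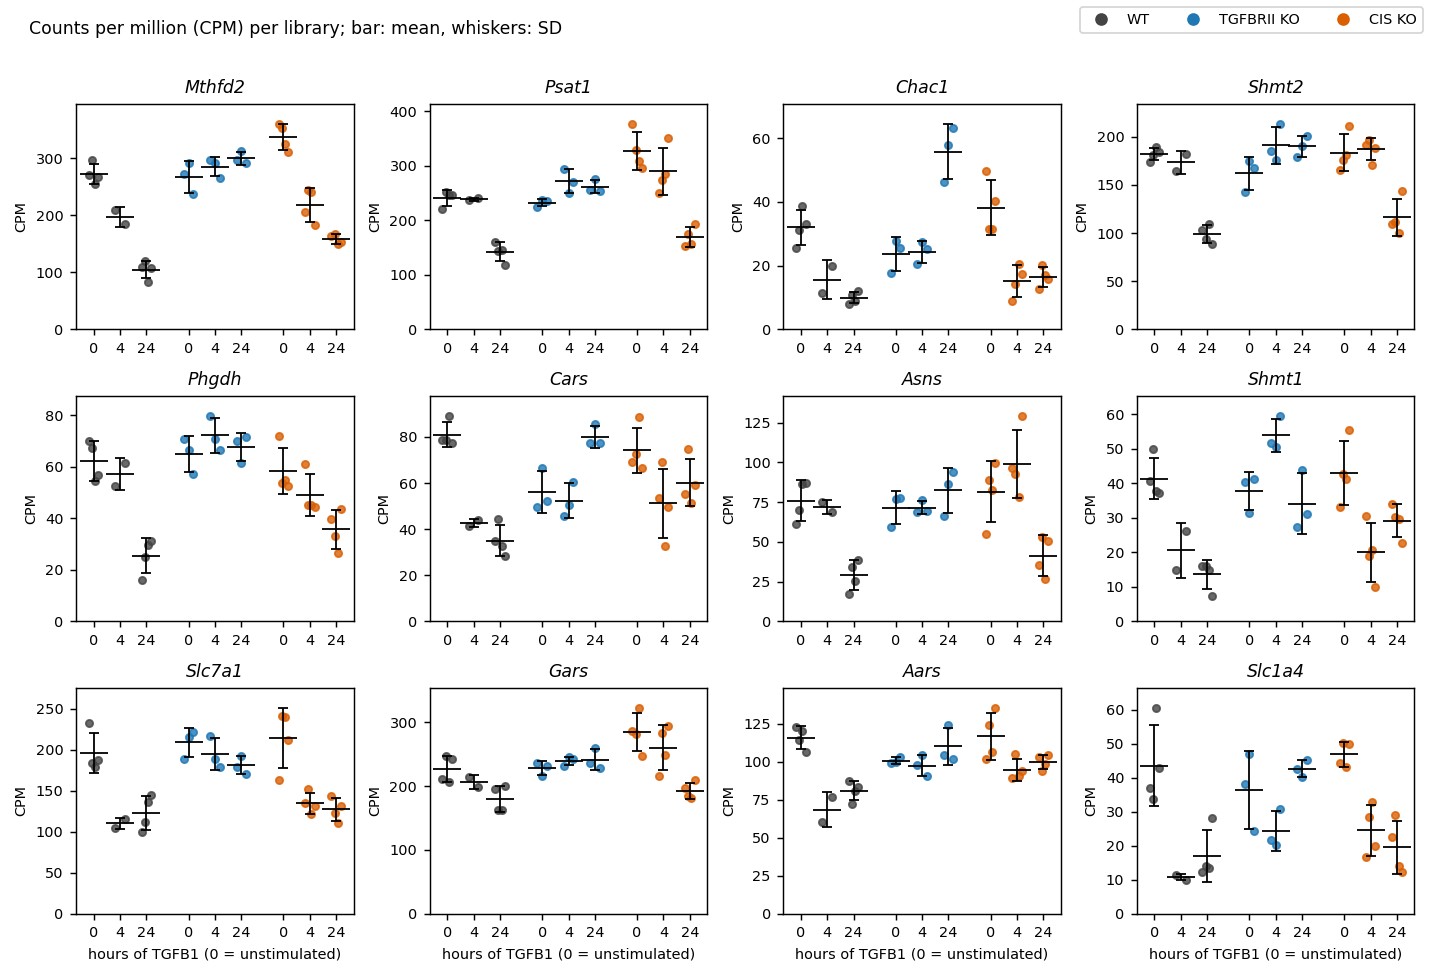
CPM (y axes) in each library (points) with mean (bar) and SD (whiskers) for 12 members, by hours of TGFB1 (x axes, 0 is unstimulated) in WT (grey), TGFBRII KO (blue) and CIS KO (orange). The Mthfd2 points step down from 254 to 297 CPM to 83.5 to 120 CPM in WT, and Chac1 stands at 46.3 to 63.1 CPM in TGFBRII KO at 24 h against 8.06 to 11.9 CPM in WT.

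Among the transporters, a cationic and a neutral amino acid carrier were lower early. Slc7a1 imports arginine and lysine, and its WT libraries read 233, 184, 179 and 188 CPM unstimulated, 105 and 115 CPM at 4 h, and 99.4, 112, 136 and 145 CPM at 24 h. The unstimulated libraries did not overlap the others, and the difference was -0.80 ± 0.17 at 4 h (adjusted p = 0.0011) and -0.67 ± 0.12 at 24 h (adjusted p = 4.6e-05). CIS KO gave -0.68 ± 0.13 and -0.77 ± 0.12. Slc1a4, an exchanger of alanine, serine and cysteine, read 36.9, 33.7, 60.4 and 42.8 CPM unstimulated, 11.3 and 10 CPM at 4 h, and 12.1, 14, 13.4 and 28.2 CPM at 24 h in WT. It differed by -2.08 ± 0.43 at 4 h (adjusted p = 0.0011) and -1.41 ± 0.27 at 24 h (adjusted p = 0.00013). At 4 h the adjusted p was 0.087 without WT 4 h replicate 4. The WT 4 h values of Slc1a4 rest on few counts, as replicate 1 held 297561 total counts. CIS KO gave -0.99 ± 0.29 at 4 h, with an adjusted p of up to 0.10 without CIS KO unstimulated replicate 4 or CIS KO 4 h replicate 1, and -1.14 ± 0.27 at 24 h.

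Slc38a2, which imports neutral amino acids with sodium, was the only member higher in WT at 24 h. Its libraries read 283, 303, 279 and 311 CPM unstimulated and 354, 370, 401 and 399 CPM at 24 h, without overlap, a difference of 0.37 ± 0.09 (adjusted p = 0.0023). TGFBRII KO (0.01 ± 0.11) and CIS KO (0.16 ± 0.09) did not pass. The difference between the WT response of Slc38a2 and that of each knockout at 24 h did not pass either. Slc7a5 and Slc3a2 are the light and heavy chains of the large neutral amino acid carrier. In CIS KO at 24 h Slc7a5 was lower by -0.81 ± 0.20 (adjusted p = 0.0029), from 151 to 243 CPM to 67.4 to 125 CPM, and Slc3a2 by -0.44 ± 0.14 (adjusted p = 0.018). In WT at 24 h Slc7a5 gave -0.25 ± 0.19 and Slc3a2 -0.11 ± 0.14, and neither passed. Slc1a5, a glutamine carrier, was lower in CIS KO at 24 h (-0.33 ± 0.12, adjusted p = 0.04). The Slc3a2 call was lost without any of 4 of 8 libraries (adjusted p up to 0.14; CIS KO unstimulated replicates 1, 2 and 3 and CIS KO 24 h replicate 2). That of Slc1a5 was lost without any of 6 (up to 0.26; all but CIS KO 24 h replicates 1 and 4). The Slc3a2 call was kept in 5 and the Slc1a5 call in 3 of 7 other settings. Slc38a1, another neutral carrier, passed in no comparison within a genotype, and Slc7a11 counts ranged from 0 to 5 per library.

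Of the 11 tRNA synthetases, 7 were lower in WT at 24 h with a median log2 difference of -0.33 over the 11. Cars, for cysteine, moved most and early. Its libraries read 78.8, 78.7, 88.9 and 77.3 CPM in unstimulated WT libraries, 41.3 and 43.8 CPM at 4 h, and 34.9, 44.2, 32.8 and 28.2 CPM at 24 h. All stimulated libraries were below all unstimulated ones, with differences of -0.91 ± 0.22 at 4 h (adjusted p = 0.0047; 0.10 without WT 4 h replicate 4) and -1.19 ± 0.16 at 24 h (adjusted p = 5.4e-07). Aars, for alanine, read 123, 114, 120 and 106 CPM, then 60.1 and 76.4 CPM, then 87.3, 72.3, 80.5 and 83.1 CPM, also without overlap between unstimulated and stimulated libraries. The differences were -0.69 ± 0.14 (adjusted p = 0.0017) and -0.53 ± 0.10 (adjusted p = 0.00013).

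Nars, for asparagine, was lower at 24 h in WT (-0.44 ± 0.09, adjusted p = 0.00066) and CIS KO (-0.46 ± 0.10, adjusted p = 0.00051), from 381 to 431 CPM to 263 to 335 CPM in WT. Wars and Yars, for tryptophan and tyrosine, gave -0.48 ± 0.12 and -0.46 ± 0.12 in WT and -0.46 ± 0.13 and -0.45 ± 0.12 in CIS KO. In CIS KO the Wars and Yars calls were lost without CIS KO unstimulated replicate 4 (adjusted p = 0.13 and 0.054). Gars, for glycine, read 211, 247, 207 and 243 CPM in unstimulated WT libraries, 214 and 199 CPM at 4 h, and 195, 162, 162 and 200 CPM at 24 h, where all were below the unstimulated range. It was lower at 24 h by -0.33 ± 0.10 in WT (adjusted p = 0.015) and -0.56 ± 0.10 in CIS KO (adjusted p = 0.00013). Tars, for threonine, gave -0.30 ± 0.09 in WT (adjusted p = 0.018) and -0.31 ± 0.10 in CIS KO (adjusted p = 0.022). The WT call of Gars was lost without WT unstimulated replicate 2 or 4 or WT 24 h replicate 2 or 3 (adjusted p up to 0.07). That of Tars was lost without WT unstimulated replicate 1 or 4 or WT 24 h replicate 2 (up to 0.084), and in CIS KO without unstimulated replicate 1 or 4 or 24 h replicate 2 (up to 0.10). The Tars calls were kept in 5 (WT) and 3 (CIS KO) of 7 other settings. Iars, for isoleucine, passed only in CIS KO among the genotypes at 24 h (-0.50 ± 0.12, adjusted p = 0.0018; -0.29 ± 0.11 in WT, adjusted p = 0.073), and its difference between the responses did not pass (-0.22 ± 0.16). At 4 h in CIS KO, Cars (-0.53 ± 0.18), Yars (-0.45 ± 0.13) and Iars (-0.36 ± 0.12) were lower. Each lost its call without any of 5, 3 and 6 of the 8 libraries, with adjusted p up to 0.20, 0.14 and 0.24, and they were kept in 5, 5 and 4 of 7 other settings. Sars, Eprs and Lars, for serine, glutamate with proline, and leucine, did not pass at 24 h against unstimulated cells in any genotype.

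**Figure D4:**
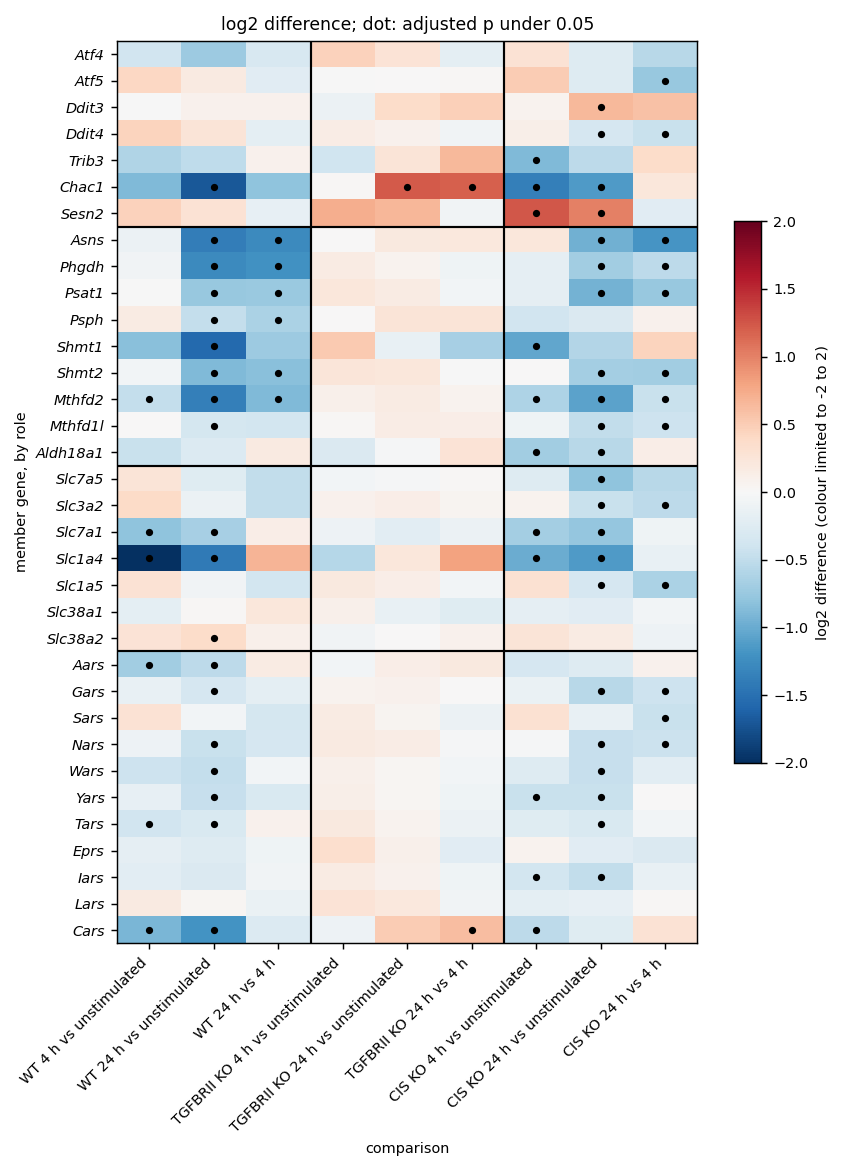
Log2 difference (colour, limited to -2 to 2) of the 34 tested members (rows, by role) in 9 comparisons within a genotype (columns); dots mark an adjusted p under 0.05. The WT and CIS KO blocks are mostly blue at 24 h, with 18 and 20 lower members, and the TGFBRII KO block has dots only for Chac1 and Cars.

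Of the 7 regulators 1, Chac1, passed in WT at 24 h. Atf4 (Entrez 11911; chromosome 15, 80255184 to 80257545) read 31.8, 31.2, 30.2 and 20.7 CPM in unstimulated WT libraries, 7.52 and 27.6 CPM at 4 h, and 17.5, 9.71, 17.9 and 26.7 CPM at 24 h. The 24 h libraries overlapped the unstimulated ones, and the difference did not pass (-0.72 ± 0.27, adjusted p = 0.055). TGFBRII KO gave 0.27 ± 0.28 and CIS KO -0.26 ± 0.28 at 24 h. Only 101 Atf4 counts lay behind the 4 unstimulated WT libraries, and how the counting treated reads shared with near-identical copies is not given in the sources used here. Ddit3, which encodes the stress factor CHOP, read 25.4 to 51.1 CPM unstimulated and 31.3 to 52.4 CPM at 24 h in WT (0.08 ± 0.22). In CIS KO Ddit3 was higher at 24 h (0.65 ± 0.24, adjusted p = 0.043), with 35.4, 54.6, 62.4 and 60.9 CPM against 60.8, 29.7, 23.6 and 29.1 CPM. The groups overlapped through CIS KO unstimulated replicate 1. The call was lost without CIS KO 24 h replicate 2, 3 or 4 or unstimulated replicate 2, 3 or 4 (adjusted p up to 0.16), and kept in 3 of 7 other settings.

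Chac1 (Entrez 69065; chromosome 2, 119351242 to 119354326) encodes an enzyme that degrades glutathione and is a target of the ATF4 and CHOP arm. Its WT libraries read 25.4, 31.2, 38.6 and 33.1 CPM unstimulated, 11.3 and 20 CPM at 4 h, and 8.06, 10.8, 8.94 and 11.9 CPM at 24 h. All stimulated libraries lay below the unstimulated ones, but the 4 h difference did not pass (-0.88 ± 0.32, adjusted p = 0.066). The 24 h level was 3.23-fold lower (-1.69 ± 0.25, adjusted p = 3.4e-06). TGFBRII KO libraries went the other way, from 17.7, 27.7 and 25.5 CPM and, at 4 h, 20.5, 27.4 and 25.1 CPM to 46.3, 57.8 and 63.1 CPM at 24 h. Those 24 h libraries lay above all others of that genotype. The level was 2.34-fold higher (1.23 ± 0.23, adjusted p = 0.032), but the call was lost without any of 5 of the 6 libraries, all except 24 h replicate 1 (adjusted p up to 0.47), with library size alone as the scaling, and by DESeq2. Against the 4 h cells the difference was 1.2 ± 0.23 (adjusted p = 0.00074) and held in each of those settings and without each library. CIS KO libraries fell from 31.4 to 49.7 CPM to 8.91 to 20.6 CPM at 4 h (-1.37 ± 0.27, adjusted p = 0.00039) and 12.7 to 20.2 CPM at 24 h (-1.13 ± 0.24, adjusted p = 0.00057).

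Sesn2, a sensor that restrains the growth kinase mTORC1, was higher in CIS KO at 4 h and 24 h (1.24 ± 0.36 and 1.00 ± 0.35, adjusted p = 0.016 and 0.032). It read 7.42 to 16.6 CPM unstimulated, 20.6 to 30.6 CPM at 4 h and 15.7 to 32.4 CPM at 24 h. Sesn2 did not pass in WT (0.46 ± 0.46 and 0.29 ± 0.35) or in TGFBRII KO (0.73 ± 0.40 and 0.66 ± 0.40). Its response difference, CIS KO minus WT, did not pass at 4 h (0.77 ± 0.58) or 24 h. The 4 h call was lost without CIS KO unstimulated replicate 2 or 4 h replicate 1 (adjusted p up to 0.065), and the 24 h call without unstimulated replicate 1, 2 or 3 or 24 h replicate 2 (up to 0.30), with 4 of 7 other settings keeping the latter. Ddit4, another mTORC1 inhibitor, was lower in CIS KO at 24 h (-0.34 ± 0.13, adjusted p = 0.048). That call was kept in only 1 of 7 other settings and was lost without unstimulated replicate 1, 2 or 3 or 24 h replicate 2 (up to 0.40). Trib3, a pseudokinase induced by CHOP, was lower in CIS KO at 4 h (-0.89 ± 0.23, adjusted p = 0.0069) and did not pass at 24 h (-0.53 ± 0.20, adjusted p = 0.056). Atf5, a relative of Atf4, did not pass against unstimulated cells in any genotype.

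The responses of TGFBRII KO and WT cells were compared as a difference of responses, TGFBRII KO minus WT. Genotype and sex cannot be told apart in it, and the loss of the receptor is not checked by these counts. At 24 h 12 of 34 members had a higher response in TGFBRII KO (35.3%), where 6.89% of all genes did, and 0 had a lower one (3.86% of all genes). The median over the members was 0.48, against -0.02 over all genes. Synthesis and folate enzymes made up 7 of the 12. The difference was 1.59 ± 0.29 for Asns (adjusted p = 0.00018), 1.53 ± 0.15 for Mthfd2 (adjusted p = 5.2e-09), 1.35 ± 0.24 for Phgdh (adjusted p = 0.00012) and 1.11 ± 0.15 for Shmt2 (adjusted p = 1.8e-06). It was 1.41 ± 0.35 for Shmt1, 0.93 ± 0.16 for Psat1 and 0.74 ± 0.18 for Psph. Chac1 had the largest, 2.92 ± 0.34 (adjusted p = 1.1e-07), which takes in its rise of 1.23 ± 0.23 within TGFBRII KO. Cars gave 1.70 ± 0.23 (adjusted p = 2e-06), which takes in 0.51 ± 0.17 within TGFBRII KO, a difference that did not pass. Slc1a4 gave 1.64 ± 0.38, Aars 0.66 ± 0.15 and Nars 0.58 ± 0.14. These 12 held without each of the 14 libraries in turn, and 11 of them by DESeq2, where Psph was lost. Among the markers, the NK marker Prf1 (1.21 ± 0.24) and the T cell marker Cd3d (0.78 ± 0.23) also had a higher response. Itgax, a myeloid marker that NK cells carry too, had a lower one (-0.65 ± 0.17). Their part was not tested.

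In unstimulated cells Cars read 49.4, 66.3 and 52.2 CPM in TGFBRII KO and 77.3 to 88.9 CPM in WT, but the difference did not pass (-0.54 ± 0.16, adjusted p = 0.21). By edgeR's quasi-likelihood test 0 of 34 members differed between unstimulated TGFBRII KO and WT cells, where 0.0681% of all genes were higher and 0.0779% lower (0.146% called). Cars was the 1 member with an unadjusted p under 0.05, and DESeq2 also called 0. At 4 h the response difference was higher for 4 members and lower for 0 (3.96% and 3.61% of all genes, 7.57% called): Shmt1 (1.35 ± 0.38), Slc7a1 (0.70 ± 0.21), Mthfd2 (0.58 ± 0.17) and Tars (0.58 ± 0.17). These calls rested on few libraries, and of 7 other settings 5 kept Shmt1, 6 Slc7a1, 5 Mthfd2 and 4 Tars. The count was 0 without WT 4 h replicate 4. It was 1 without WT 4 h replicate 1, TGFBRII KO 4 h replicate 1 or 2, or TGFBRII KO unstimulated replicate 1. It was 2 without TGFBRII KO unstimulated replicate 2, without WT unstimulated replicate 1, or with no filter on low counts, and 0 by DESeq2.

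**Figure D5:**
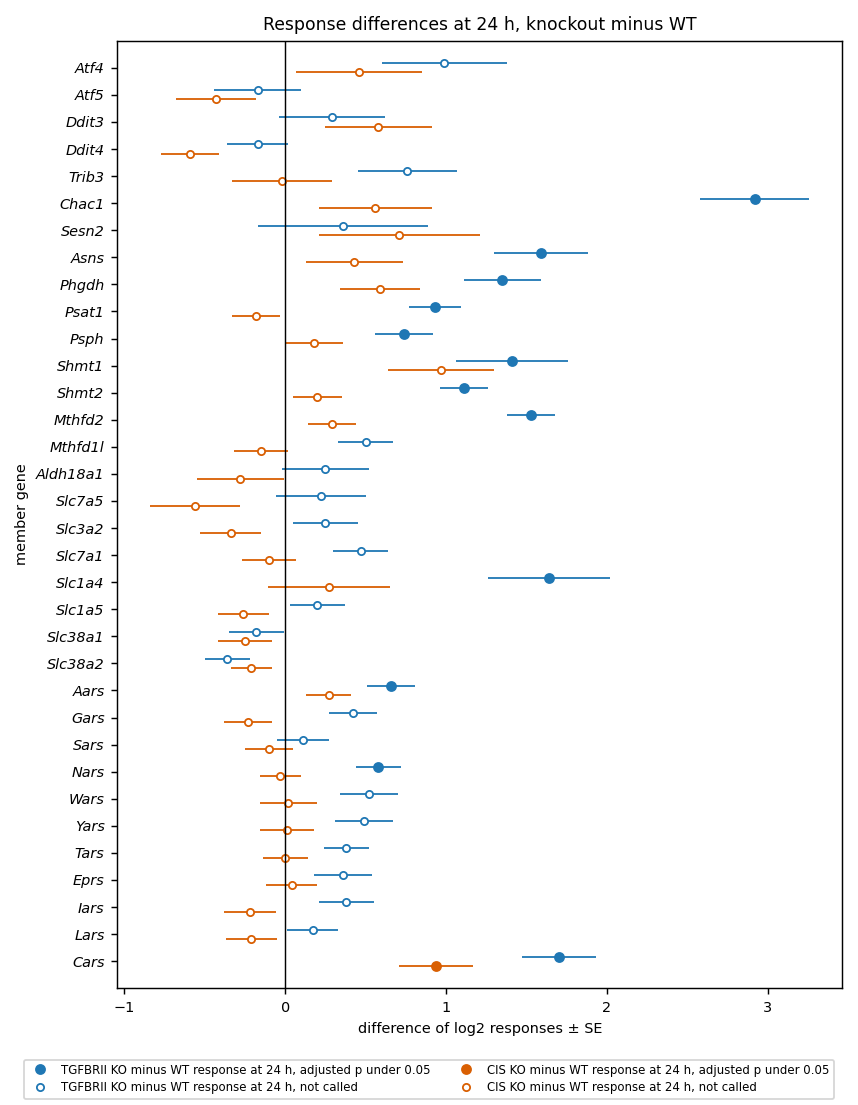
Difference of log2 responses at 24 h (x axis, ± SE), TGFBRII KO minus WT (blue) and CIS KO minus WT (orange), for the 34 tested members; filled points have an adjusted p under 0.05. The blue points are filled for 12 members, all to the right of 0 and up to 2.92 for Chac1, and the orange ones for Cars alone.

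CIS KO cells responded in the same direction as WT at 24 h for the members that passed in both. The 2 comparisons share no library. Of the 18 members lower in WT and 20 lower in CIS KO, 14 were the same genes, which is 77.8% of the WT list and 70% of the CIS KO list. They were Asns, Chac1, Gars, Mthfd1l, Mthfd2, Nars, Phgdh, Psat1, Shmt2, Slc1a4, Slc7a1, Tars, Wars and Yars. With most of the 34 tested members lower in each genotype, much of this overlap follows from those counts alone. Tested as a difference of responses at 24 h, 1 member passed, where 1.21% of all genes were higher and 0.127% lower (1.33% called). It was Cars, whose CIS KO libraries read 69, 72.4, 88.4 and 66.6 CPM unstimulated and 55.2, 74.8, 51.5 and 59.2 CPM at 24 h, an overlap that WT did not have. The difference was 0.94 ± 0.23 (adjusted p = 0.021). It lost the call without WT unstimulated replicate 3, WT 24 h replicate 3 or 4 or CIS KO 24 h replicate 2 (adjusted p up to 0.16). It also lost it by DESeq2, with only the compared groups in the fit and with log2 total counts as a covariate.

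Apart from Cars, members lower in 1 of these 2 genotypes alone at 24 h were not shown to differ in response: Slc7a5 gave, for example, -0.56 ± 0.28 (adjusted p = 0.35), Shmt1 0.97 ± 0.33 (0.17), Aars 0.27 ± 0.14 (0.46) and Ddit4 -0.59 ± 0.18 (0.10). At 4 h 0 of 34 members differed between the CIS KO and WT responses by edgeR's quasi-likelihood test or DESeq2, with 0% of all genes called and 1 member (Psph) at an unadjusted p under 0.05. The SE of these 4 h differences had a median of 0.21. Before stimulation 4 members were higher in CIS KO than in WT and 0 lower (3.19% and 2.96% of all genes, 6.15% called): Ddit4 (0.50 ± 0.13), Psat1 (0.43 ± 0.10), Lars (0.39 ± 0.11) and Gars (0.33 ± 0.10). Of 7 other settings, 5 kept Ddit4, 6 Psat1, 4 Lars and 2 Gars. The count was 0 without CIS KO unstimulated replicate 1 or WT unstimulated replicate 3, 2 without CIS KO unstimulated replicate 2 or 3 or WT unstimulated replicate 2 or 4, and 7 without CIS KO unstimulated replicate 4. It was 0 with log2 total counts as a covariate, and total counts ran from 392266 to 711659 in these CIS KO libraries and from 712432 to 1135104 in WT. The part of depth was not tested further. Every CIS KO response is measured from these same unstimulated libraries. Before stimulation the markers Prf1 (0.51 ± 0.15), Gzmb (0.69 ± 0.18) and Pecam1 (0.36 ± 0.09) were higher in CIS KO than in WT, and Bcl11b (-0.73 ± 0.19) was lower. NK markers also moved in CIS KO at 24 h: 5 of 12 were lower (among them Ncr1 at -0.87 and Prf1 at -1.13), with summed levels of 3128 to 5080 CPM against 4821 to 7443 CPM unstimulated. In WT 3 of 12 were lower at 24 h. T cell markers moved both ways there: Cd3d (-0.58 ± 0.15) and Bcl11b (-0.68 ± 0.18) were lower, Cd3g (0.36 ± 0.12) and Lat (0.47 ± 0.11) higher, and the 9 listed summed to 431 to 492 CPM unstimulated and 442 to 513 CPM at 24 h. Itgax (0.36 ± 0.11) and Pecam1 (0.37 ± 0.09) were higher too. The part of these markers in the members' changes was not tested.

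Members with the response element core in their promoter were lower in WT at 24 h in 5 of 5 tested cases, namely Chac1, Asns, Aars, Gars and Tars. The Gars and Tars calls were lost without any of 4 and 3 of the 8 libraries. Of the 22 tested members with a window and no match, 10 were lower. Cars, Nars and Wars were lower too but had no window. Since the list holds known ATF4 targets, setting these counts side by side is not a test of the core. Over all tested genes the core went with 13.2% lower (189 genes) and its absence with 11.3% lower (7851 genes). In CIS KO at 24 h 4 of the 5 were lower, where 20 of all 34 tested members were. In TGFBRII KO at 24 h 1 of the 5, Chac1, was higher and 0 were lower.

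Counts of other genes of the same pathways in WT at 24 h are to be read against 11.5% of all genes lower and 9.63% higher. Of 16 tested partners and targets of ATF4 and CHOP outside the member list, 5 were lower and 3 higher. Jdp2, a basic leucine zipper repressor, gave -1.07 ± 0.18, Eif4ebp1, an inhibitor of cap-dependent translation, -1.0 ± 0.19, and Stc2, a secreted glycoprotein, -1.36 ± 0.30. Gclm, a subunit of the enzyme that makes the glutathione precursor, was higher (1.60 ± 0.25). Among 15 other folate and one-carbon genes 5 were lower and 0 higher, with Tyms, thymidylate synthase, at -1.57 ± 0.17. Of 13 genes of glutamine, glutamate, proline and aspartate metabolism 5 were lower and 1 higher, with Oat at -1.12 ± 0.17 and Bcat1, which starts branched-chain amino acid breakdown, at -2.41 ± 0.57. Slc7a3, another arginine carrier, was lower by -2.11 ± 0.46.

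Of 14 eIF2 kinases, sensors and phosphatase genes, which act upstream of ATF4, 0 passed edgeR's quasi-likelihood test in WT at 24 h, with 2 at an unadjusted p under 0.05. Of 22 genes of mTORC1 and its amino acid sensors 0 passed, with 3 at an unadjusted p under 0.05. Among 14 unfolded protein response genes outside the ATF4 arm 2 were lower, Sdf2l1 (-0.74 ± 0.13) and Hsp90b1 (-0.35 ± 0.11). Other cytosolic synthetases had 3 of 12 lower and mitochondrial ones 1 of 17. In the MYC network 1 of 10 was lower, Mxd3 (-2.76 ± 0.39).

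TGFBRII KO cells had 0 genes called in each of these lists at 24 h by edgeR's quasi-likelihood test, where 0.0195% of all genes were called, with at most 5 of a list (the eIF2 genes) at an unadjusted p under 0.05. At 4 h they had genes that rose: Mthfd1 (0.80 ± 0.16), Mat2a (0.60 ± 0.11), Atic (0.60 ± 0.14) and Sfxn1 (0.43 ± 0.11), which is 4 of 15 other folate genes, and Eif2b5, Eif2b3 and Eif2ak2, which is 3 of 14 eIF2 genes, where 4.57% of all genes rose. In the same comparison 3 of 5 tested T cell markers were lower, and their part was not tested. From 4 h to 24 h, which shares those 4 h libraries, 4 of the 15 folate genes were lower, namely Mat2a (-0.67 ± 0.11), Mthfd1 (-0.87 ± 0.16), Atic (-0.75 ± 0.14) and Gcsh (-0.60 ± 0.15). So were 4 of the 14 eIF2 genes, among them Eif2ak3 (-1.18 ± 0.22) and Eif2b3 (-1.18 ± 0.23), where 3.86% of all genes were lower. Eif4ebp1 was the 1 of 16 other ATF4 and CHOP genes that was higher (0.71 ± 0.19), and 4 were lower. The response difference at 24 h, TGFBRII KO minus WT, was higher for Tyms (1.53 ± 0.24), Stc2 (2.14 ± 0.43), Eif4ebp1 (1.37 ± 0.27), Oat (1.22 ± 0.24) and Slc7a3 (2.44 ± 0.60). It was lower for Gclm (-1.62 ± 0.49), a gene outside the rule for named genes in that comparison and chosen after its value was seen.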

How the data were processed

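The authors deposited 1 table of raw counts per gene, with 1 column per library and Entrez identifiers. Per the submitters' processing notes, FastQC, Trimmomatic, Subread, featureCounts, Picard and SAMtools were used with mouse build mm10. The sources used here do not give versions, the strand setting or the treatment of duplicates. RNA came from a column kit and libraries from a directional kit, per the labels' protocols. Columns were matched to samples by title, with 0 left unused. Symbols and positions came from RefSeq (GRCm38.p6) for 25275 genes. Rows without a symbol held 0.958% of the counts.

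The test was edgeR 4.0.16 (R 4.3.3) on the raw counts, with filterByExpr on the 9 groups, TMM scaling, 1 fit of all 31 libraries, quasi-likelihood F-tests for 15 comparisons, and Benjamini-Hochberg adjustment over 10275 genes, with calls at an adjusted p under 0.05. All adjusted p-values are from this test unless DESeq2 (1.42.0) is named. Differences are log2 ± SE, where the SE is the absolute log2 difference over the square root of F. CPM values use the TMM-scaled library sizes. Response differences are interaction terms. Tested on counts simulated for WT at 24 h (10275 genes), it found 38.8% of genes changed 1.5-fold, 80.6% of those changed 2-fold and 93.9% of those changed 4-fold, and 2.74% of its calls were false.

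The members and gene lists were chosen with earlier results of these data known. Values per library are given for the 12 members with the smallest p over the responses and response differences, plus Atf4, Ddit3, Asns and Chac1 (14 genes in all), and for others by range. Slc38a2 is also given by library, chosen after its values were seen. From each pathway list up to 4 genes with the smallest p are named; 1 gene's values are not reported here. Alternatives tried were other scalings, no filter, DESeq2, a depth covariate, the compared groups alone, a replicate block and leaving out each library.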

Additional observations from a re-analysis of the deposited data

Results flagged for a closer look

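In 8 of the 70 groups of 4 libraries examined for 14 members, 1 library stood apart from the other three by Dixon's criterion, which chance alone meets in about 1 group in 20. Phgdh was high in CIS KO unstimulated replicate 1 (71.8 CPM) and in CIS KO 4 h replicate 1 (61.1 CPM), and Ddit3 was high in that same unstimulated library (60.8 CPM). In unstimulated WT cells Cars was high in replicate 3 (88.9 CPM), Slc7a1 was high in replicate 1 (233 CPM), and Atf4 was low in replicate 4 (20.7 CPM). WT 24 h replicate 4 had the lowest Shmt1 (7.42 CPM) and the highest Slc1a4 (28.2 CPM) of its group.

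Response differences between genotypes that passed the test were also singled out. For TGFBRII KO minus WT at 24 h they were, on the log2 scale, Chac1 2.92, Cars 1.70, Slc1a4 1.64, Asns 1.59, Mthfd2 1.53, Shmt1 1.41, Phgdh 1.35, Shmt2 1.11, Psat1 0.93, Psph 0.74, Aars 0.66 and Nars 0.58. At 4 h they were Shmt1 1.35, Slc7a1 0.70, Mthfd2 0.58 and Tars 0.58. For CIS KO minus WT at 24 h it was Cars at 0.94.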

How the results depend on the processing

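No member's called difference changed direction under any alternative. Of 101 calls over the 15 comparisons, 66 held under all 7 other settings and 57 also without each library in turn. The number of members called moved by over 1.5 times as follows. With library size alone it was 0 for TGFBRII KO at 24 h and 2 for CIS KO against WT unstimulated. With no filter it was 7 for the latter and 2 for the TGFBRII KO response difference at 4 h. With log2 total counts as a covariate it was 1 for TGFBRII KO at 4 h, 5 for TGFBRII KO 24 h against 4 h, 19 for the TGFBRII KO response difference at 24 h, and 0 for CIS KO against WT unstimulated and for the CIS KO response difference at 24 h. With only the compared groups it was 5 for TGFBRII KO 24 h against 4 h, 6 for CIS KO 24 h against 4 h, 8 for CIS KO against WT unstimulated and 0 for the CIS KO response difference at 24 h. By DESeq2 it was 0 for TGFBRII KO at 24 h, 1 for TGFBRII KO 24 h against 4 h, 0 for the TGFBRII KO response difference at 4 h, 1 for CIS KO against WT unstimulated and 0 for the CIS KO response difference at 24 h. The cause was not tested. Over all groups, same-numbered libraries did not deviate together (29 pairs, correlations of -0.473 to 0.282 over 8436 genes, 8 pairs above 0.1). Within TGFBRII KO all 9 pairs were above 0 and 4 above 0.1, and between unstimulated and 4 h cells each library correlated best with its own number (0.227, 0.0743 and 0.20), a hint from the data and not from the design. The replicate block gave 19 for WT at 24 h, 21 for CIS KO at 24 h and 12 for the TGFBRII KO response difference at 24 h, and moved no count by over 1.5 times. It lost the single calls of Psph in WT and Phgdh in CIS KO (24 h against 4 h), Iars (CIS KO at 4 h), Ddit4 (CIS KO at 24 h), Shmt1 (TGFBRII KO response difference at 4 h) and Gars (CIS KO against WT unstimulated).

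With library size alone the split of all genes called higher and lower went from 709 and 517 to 527 and 751 for WT at 4 h, from 308 and 470 to 426 and 364 for WT 24 h against 4 h, and from 796 and 791 to 1193 and 520 for CIS KO 24 h against 4 h. It went from 407 and 371 to 491 and 287 for the TGFBRII KO response difference at 4 h, and from 328 and 304 to 279 and 520 for CIS KO against WT unstimulated.

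Leaving out 1 library gave 2 to 6 for WT at 4 h, 16 to 21 at 24 h and 4 to 8 for 24 h against 4 h. For TGFBRII KO it gave 0 to 1, 0 to 1 and 1 to 2. For CIS KO it gave 8 to 12, 15 to 22 and 10 to 14. The response differences gave 0 to 5 (TGFBRII KO at 4 h), 12 to 16 (at 24 h), 0 to 0 (CIS KO at 4 h) and 0 to 1 (at 24 h), and the unstimulated comparisons 0 to 0 (TGFBRII KO) and 0 to 7 (CIS KO). Depth limits the members with few counts most: Sesn2 had 353 counts in all libraries, Chac1 587 and Atf4 607. With 2 WT libraries at 4 h, comparisons that use them borrow their spread from the other groups.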

Other observations

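Genes of the unfolded protein response outside the ATF4 arm, which fold and process proteins in the endoplasmic reticulum, were called often in CIS KO. Of 14 tested, 8 were higher in unstimulated CIS KO than in WT cells and 0 were lower, where 3.19% of all genes were higher, with a median log2 difference of 0.55 against -0.04 over all genes. Examples are Sdf2l1 (0.56 ± 0.12), Hspa5, the chaperone BiP (0.60 ± 0.13), Calr, calreticulin (0.70 ± 0.17), and Manf (0.66 ± 0.17). In alternatives chosen after seeing the data, this count was 1 without CIS KO unstimulated replicate 1 or 3, 2 without WT unstimulated replicate 3, 5 without WT unstimulated replicate 4, and 1 with log2 total counts as a covariate. The CIS KO libraries were the shallower (392266 to 711659 total counts against 712432 to 1135104 in WT). After 24 h of TGFB1, 9 of the 14 were lower in CIS KO than in its unstimulated cells, where 11.7% of all genes were lower, with a median of -0.64, among them Sdf2l1 (-1.13 ± 0.13), Hsp90b1 (-0.63 ± 0.11), Hspa5 (-0.71 ± 0.13) and Creld2 (-0.82 ± 0.16). That count ran from 8 to 9 without each library in turn and was 7 with the depth covariate. The same unstimulated CIS KO libraries enter both comparisons. When the 24 h response of CIS KO was set against that of WT, 0 of the 14 passed by edgeR's quasi-likelihood test (median -0.42; 5 at an unadjusted p under 0.05).

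Eif2ak3, the eIF2 kinase PERK of the same stress response, gave 0.71 ± 0.21 (adjusted p = 0.039) in unstimulated CIS KO against WT and -0.84 ± 0.21 (adjusted p = 0.0042) in CIS KO at 24 h. From 4 h to 24 h it was lower in TGFBRII KO (-1.18 ± 0.22, adjusted p = 0.00051) and in CIS KO (-0.91 ± 0.21, adjusted p = 0.0036). In WT it did not pass (-0.86 ± 0.28, adjusted p = 0.052). In TGFBRII KO at 24 h 0 of the 14 unfolded protein response genes passed edgeR's quasi-likelihood test, with 1 at an unadjusted p under 0.05. These genes were described after their values were seen.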
